A study of Arabidopsis thaliana and Zea mays with 822 samples.

Results

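The deletions described here end, as labelled, in an intron of AtPDS3 (AT4G14210), the Arabidopsis gene for phytoene desaturase. This intron lies next to the exon that holds the site of CasΦ guide RNA 10 (gRNA10). A mutation pattern, the unit of the deposited counts, was a member when it was 1 deletion of 3 to 20 bp whose last deleted base, as the pattern was labelled, lay at position +4 or beyond. There were 145 such patterns among 1391 edited patterns at this site and 2889 at all target sites of the series. As labelled, 14 of them also started in the intron, with at most 0.609% of the edited reads of any library or T1 plant together, and the others started in the exon. Edited patterns are those with an indel of 3 bp or more that reached 100 reads in a library, and a share is the percentage of a library's edited reads.

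CasΦ-2 is a compact CRISPR nuclease with a single active site, and WTCasΦ was compared with its engineered variants vCasΦ and nCasΦ. Amplicons of the site came from 568 libraries, of which 76 were treated Col-0 mesophyll protoplasts, 471 were leaves of separate T1 plants (first-generation transformants, each a mosaic of cells), 5 were tissues of 1 further T1 plant, and 16 were controls. In protoplasts the enzyme and guide arrived on a plasmid (62 libraries) or as a purified ribonucleoprotein, RNP (14 libraries), and in plasmids and T1 plants the UBQ10 promoter drove the enzyme. The guide was transcribed from the Pol-III promoter U6 or from the Pol-II promoters CmYLCV, 2x35S or UBQ10, as a single repeat and spacer (A form), with a closing repeat (B form) or as a triple array (C form), with or without ribozymes, and with a spacer of 20 or 30 bp.

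The T1 plants carried 1 of 2 enzyme layouts, with nuclear localization signals at both ends (version 1) or only at the C terminus (version 2). WTCasΦ with a U6 guide was present in Col-0 plants (43 of version 1 and 41 of version 2 at 23 °C, 15 and 10 incubated at 28 °C, and 6 version 2 plants of an earlier screen, also incubated at 28 °C). It was also present in rdr6-15 plants, a mutant in a gene of transgene silencing (42 of version 1 and 23 of version 2 at 23 °C, 10 and 12 at 28 °C). Further rdr6-15 populations, all of the version 2 layout by the study's plasmid list, carried vCasΦ with the guide under U6 (49 plants), CmYLCV with ribozymes (46) or UBQ10 with ribozymes (36), and nCasΦ with the guide under U6 (41), CmYLCV with ribozymes (54) or UBQ10 with ribozymes (43). The controls were untransformed Col-0 plants, protoplasts without editing reagents or with a GFP plasmid, and protoplasts given RNPs with a scrambled guide.

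Depth was 1350425 to 9404589 reads per treated protoplast library (median 2748467), 197725 to 3661273 reads per T1 plant (median 1808633, 84 plants under 1000000) and 463926 to 4003002 reads per control. Edited reads were present in 75 of 76 protoplast libraries and in 461 of 471 T1 plants. The reads are products of PCR without molecular identifiers, so that intervals from their counts cover counting error only.

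Phytoene desaturase acts early in the synthesis of carotenoids, and plants that lack it turn white. An intron ends in the bases AG, the splice acceptor. Splicing cuts after this AG, removes the intron with it and joins the exons on either side. A deletion over this border can remove coding bases, the acceptor or both. CasΦ leaves staggered ends, which plant cells mostly rejoin with a loss of several bases. When a deletion is flanked by a short direct repeat, the same product can be written in several placements, and the sequence does not tell which bases were lost.

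AtPDS3 lies on the minus strand of chromosome 4, at chr4:8190190-8195320 of TAIR10.1. The target covers chr4:8194265-8194284, in an 89-bp exon at chr4:8194197-8194285 that is exon 4 of 15 in 2 annotated transcripts and exon 3 of 14 in the other. The 95-bp intron before it in the reading direction of the gene covers chr4:8194286-8194380. Positions were counted from the bond after base 18 of the target, so that position +3 is the outermost exon base, at 8194285, and positions +4 and +5, at 8194286 and 8194287, are the acceptor. The window below is the RefSeq sequence of the plus strand at chr4:8194262-8194304. Capitals in the first line mark the acceptor, which reads CT on this strand, and in the second line the copies of the 6-bp direct repeat CAATCC.
reference: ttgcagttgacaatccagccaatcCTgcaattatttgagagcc
repeat: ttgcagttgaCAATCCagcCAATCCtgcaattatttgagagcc

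The 8 members with the highest mean share in protoplasts are shown on this window because they made up most member reads, with the deleted bases, as labelled, in capitals.
-5:9D: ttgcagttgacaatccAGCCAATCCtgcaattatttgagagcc
-4:8D: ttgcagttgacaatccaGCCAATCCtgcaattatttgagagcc
-1:5D: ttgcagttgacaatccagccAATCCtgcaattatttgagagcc
-6:10D: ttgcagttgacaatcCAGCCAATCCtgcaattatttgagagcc
-2:9D: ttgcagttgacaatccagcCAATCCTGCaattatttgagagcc
-5:10D: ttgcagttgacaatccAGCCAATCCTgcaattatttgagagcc
-2:6D: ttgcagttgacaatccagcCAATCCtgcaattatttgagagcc
-7:12D: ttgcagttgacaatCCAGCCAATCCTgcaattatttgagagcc

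The labels placed each deletion as far towards the intron as the sequence allows, and 0 of the members could be moved further. For 5 members another placement ends at +3 or before, entirely in the exon. These were -5:9D, -1:5D, -6:10D, -2:6D and a 14-bp deletion, and they are called acceptor-kept members here, because the allele still reads AG at the end of the intron. The 140 others, called acceptor-lost members, end in the intron in every placement. As labelled, 123 of them removed both acceptor bases, 9 only the base at +4 and 4 only the base at +5. The other 4 started beyond +5 and removed neither base, but they were left in this group, since together they held at most 0.0810% of the edited reads of any library or T1 plant and were counted in only 6. The leftmost writing of -5:9D, with the other repeat copy in capitals, shows why the product of this member cannot be told from a 9-bp deletion inside the exon.
-5:9D leftmost: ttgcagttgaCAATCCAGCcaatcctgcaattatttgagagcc

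Read on the strand of the gene, the difference between the groups is visible at the joint. In the first 3 lines below capitals mark the acceptor, and in the last 2 lines they mark the bases that meet at the joint of acceptor-lost alleles.
reference, gene strand: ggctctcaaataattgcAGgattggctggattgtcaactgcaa
-5:9D allele, gene strand: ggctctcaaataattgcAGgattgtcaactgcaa
-1:5D allele, gene strand: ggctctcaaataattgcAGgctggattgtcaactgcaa
-4:8D allele, gene strand: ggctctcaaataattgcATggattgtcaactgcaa
-5:10D allele, gene strand: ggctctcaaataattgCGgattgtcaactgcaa

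Members made up 73.2% ± 8.62 (SD, n = 75) of edited reads in protoplasts, with a median of 72.5% and a range of 42.4% to 100%. In T1 plants the median was 67.5% with quartiles of 53.8% and 70.8% (n = 461). In total they held 8438016 of 11596054 edited reads in protoplasts and 72395572 of 116810746 in T1 plants. Of all reads, edited or not, members were a median of 1.01% in protoplasts and 1.51% in T1 plants, and they passed 25% of all reads in 56 T1 plants. The larger part of this share came from alleles that keep the acceptor: acceptor-kept members took 41.1% ± 9.90 and acceptor-lost members 32.1% ± 11.7 of edited reads in protoplasts, with medians of 35.6% and 26.1% in T1 plants. Single deletions of the same lengths that stayed inside the exon took 21.8% ± 8.18 in protoplasts.

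Deletions ending at +4 were by far the most frequent class (51.3% ± 10.3 of edited reads over 14 patterns in protoplasts), against 12.7% ± 5.11 over 13 patterns ending at +3, just inside the exon. In T1 plants the same classes had means of 46.1% ± 21.4 and 11.8% ± 11.2 (SD, n = 461). The excess at +4 was in acceptor-kept members, which took 41.1% there, while the acceptor-lost members ending at +4 took 10.2% ± 6.02. Further into the intron the shares of protoplast reads were 7.37% ± 5.25 at +5, 1.09% ± 1.12 at +6, 4.98% ± 4.39 at +7 and 2.00% ± 2.12 at +10. The farthest member ended at +25.

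**Figure D1:**
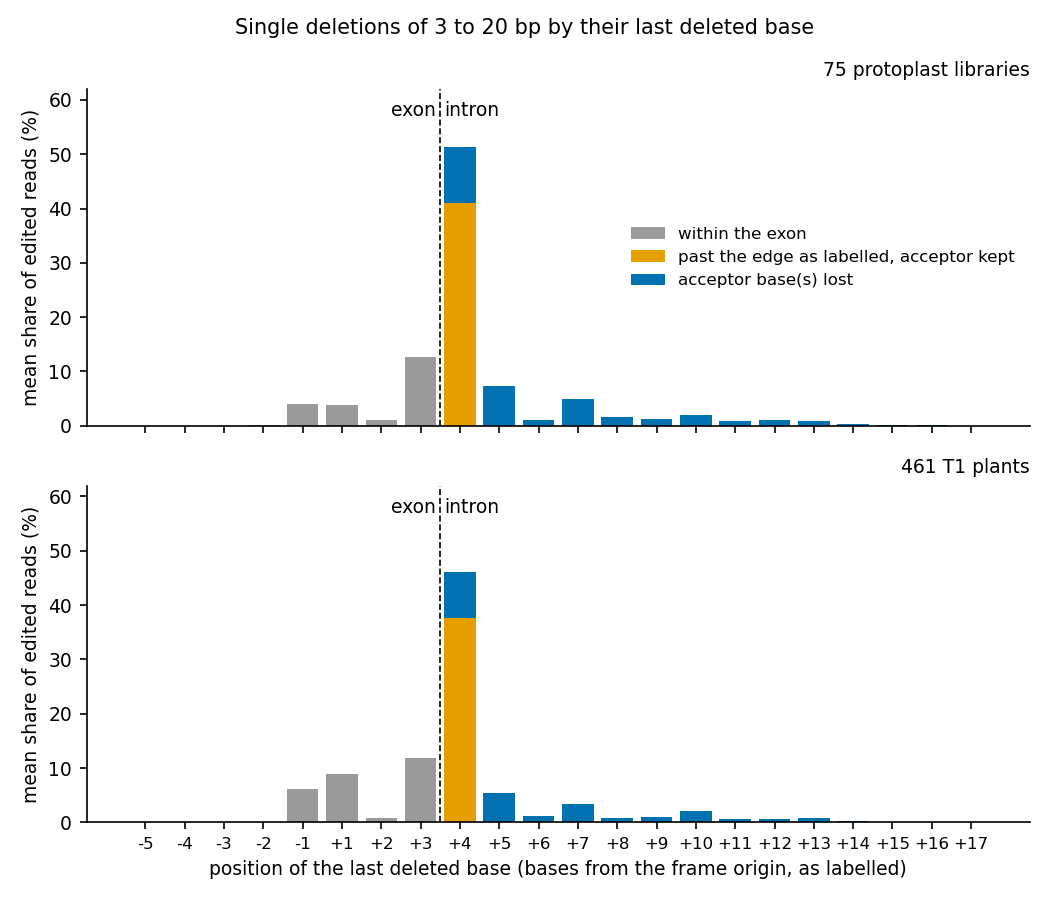
Mean share of edited reads (y axis, percent) of single deletions of 3 to 20 bp by the position of the last deleted base as labelled (x axis), in 75 protoplast libraries (top) and 461 T1 plants (bottom). Bars are split into deletions within the exon, acceptor-kept members and acceptor-lost members, and the dashed line is the exon edge. In both panels the bar at +4 is the highest and is mostly acceptor-kept.

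A single member led most libraries and plants. The 9-bp deletion -5:9D took 26.9% ± 9.27 of edited reads in protoplasts, was counted in 73 of 75 libraries, and was the most abundant member in 70. In T1 plants its median share was 20.8% (quartiles 12.3% and 25.2%), and it led in 354 plants, while 25 different members led at least 1 plant. It removes a multiple of 3 bp, which does not shift the reading frame.

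The next members were much rarer than -5:9D and close to each other. In protoplasts -4:8D, which loses 1 acceptor base, took 7.19% ± 5.69, the acceptor-kept -1:5D took 5.99% ± 4.69 and the acceptor-kept -6:10D took 5.45% ± 3.41, so that neighbours in this order differed by less than their SD. They were followed by -2:9D with 4.21% ± 4.28 and -5:10D with 3.24% ± 4.71, both without an acceptor, then by the acceptor-kept 6-bp deletion -2:6D with 2.53% ± 2.07 and by -7:12D with 1.71% ± 1.44. The exon-confined deletion with the highest share, -5:8D, ends 1 base earlier than -5:9D and took 8.18% ± 4.89. These 8 members held a median of 77.6% of member reads in protoplasts and 77.5% in T1 plants.

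**Figure D2:**
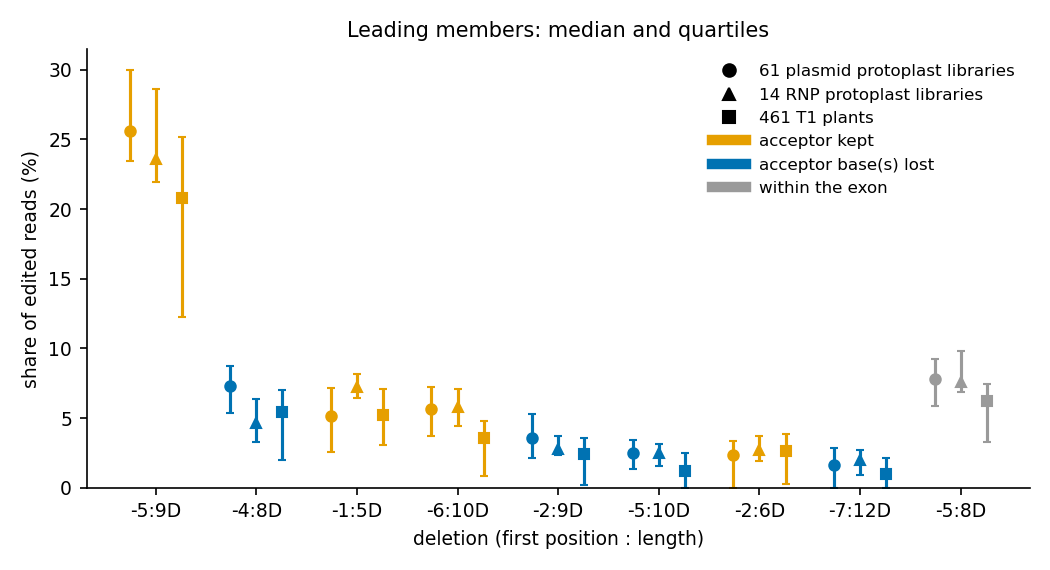
Share of edited reads (y axis, percent) of the 8 leading members and of the exon-confined -5:8D (x axis), as medians with quartiles over 61 plasmid protoplast libraries (circles), 14 RNP protoplast libraries (triangles) and 461 T1 plants (squares). Only -5:9D has medians above 20% in each of the 3 sets.

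The members differed in how many short repeats flanked them. Of the 145, 106 had a single placement, 30 had a flanking repeat of 1 bp and 9 one of at least 2 bp, yet patterns with a repeat of at least 2 bp held a median of 54.1% of member reads in protoplasts and 52.1% in T1 plants. Among exon-confined deletions the corresponding medians were 17.0% and 20.9%, a difference that was not tested. These medians cannot show whether the classes differ in repeats, because the labelling rule enters into them. A repeat-flanked deletion that can be written up to the intron counts as a member, even when another placement lies in the exon. Such acceptor-kept members took 26.9% of edited reads in protoplasts with a 6-bp repeat, 5.99% with a 2-bp repeat and 8.25% ± 4.63 with a 1-bp repeat. The acceptor-lost members were mostly without a repeat: in protoplasts those with none took 20.4% ± 8.46 of edited reads, those with 1 bp 4.09% ± 3.24 and those with 2 bp 6.15% ± 4.36. The widest repeat among them, 4 bp, flanks 2 members, and nearly all of their reads were of -7:17D, a 17-bp deletion with 1.45% ± 1.82.
-7:17D: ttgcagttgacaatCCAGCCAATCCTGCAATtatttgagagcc

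In protoplasts 110 of the 145 members were counted and in T1 plants 144, with 109 in both and 14 in a single library or plant. These counts come from 75 protoplast libraries and 461 T1 plants, so the systems were not searched equally. The same overlap is not given here for the other edited patterns of the site. A protoplast library held a median of 23.0 members and a T1 plant a median of 20.0, up to 103. Of the 140 acceptor-lost members, 27 placed the bases AG across or directly before the new joint in at least 1 placement, and these held a median of 7.40% of acceptor-lost reads in protoplasts and 7.01% in T1 plants. Splicing was not measured in these libraries.

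Controls held few member reads. In 10 of the 16 no member reached the read minimum, where members below that minimum summed to 39 to 253 reads, 0.0015% to 0.0102% of all reads. A protoplast control held -3:7D with 635 reads, 0.0168% of its total. The 3 untransformed plants of the vCasΦ and nCasΦ plant experiment held 1815, 843 and 1455 member reads, 0.0601%, 0.0368% and 0.0540% of their totals, with -5:9D first in each, and 2 other untransformed plants held -5:9D with 171 and 135 reads. The member share of edited reads in those 3 control plants was 60.9%, 59.1% and 60.2%, close to that of treated plants, so that T1 plants of comparable efficiency cannot be told from controls by the pattern. The origin of these reads was not tested, and the main comparisons between T1 plants are given also for plants with an efficiency of at least 1%.

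In plasmid protoplasts the member shares of the enzymes overlapped, over 3 guide cassettes with 2 libraries each. The WTCasΦ libraries had shares of 70.4% and 79.8% with U6, 75.7% and 71.2% with CmYLCV and ribozymes, and 74.0% and 72.3% with UBQ10 and ribozymes. The vCasΦ libraries had 73.8% and 72.5%, 72.2% and 73.6%, and 68.8% and 71.9% in the same order. The nCasΦ libraries had 78.3% and 72.4%, 73.9% and 74.9%, and 72.9% and 76.1%. The groups overlapped, with means of 73.9%, 72.1% and 74.7% (n = 6 each).

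No enzyme difference in plasmid protoplasts passed the test. By exact permutation within cassettes (two-sided, smallest possible p 0.00926, Benjamini-Hochberg over the 9 enzyme comparisons), vCasΦ minus WTCasΦ was -1.77 percentage points (adjusted p = 0.50). Counted over distinct edited patterns in place of reads it was -10.3 (exact permutation p = 0.00926, adjusted p = 0.0833), and without the patterns found in controls -4.70 (adjusted p = 0.309). Since 0.00926 is the smallest possible p, a single comparison of these libraries could not pass alone after adjustment. Failing the test therefore does not show that the enzymes are alike. The value for nCasΦ minus WTCasΦ was 0.845 (adjusted p = 0.667) and for vCasΦ minus nCasΦ -2.61 (p = 0.0648, adjusted p = 0.195), with vCasΦ lower in 3 of 3 cassettes. Acceptor-lost members took 33.7% ± 4.90, 35.7% ± 1.77 and 35.7% ± 3.94 of edited reads with WTCasΦ, vCasΦ and nCasΦ. Over the same libraries the editing efficiency was 8.76% ± 6.78, 20.9% ± 6.85 and 18.3% ± 13.3.

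With RNPs the member share was again similar, while the acceptor-lost part was lowest with WTCasΦ. Member shares were 65.6%, 72.9%, 62.6% and 62.8% with WTCasΦ, 62.9%, 80.1%, 72.1% and 73.6% with vCasΦ, and 68.8%, 72.2%, 68.3% and 72.8% with nCasΦ. Acceptor-lost members took 25.5%, 25.5%, 22.1% and 22.2% with WTCasΦ, 29.8%, 31.3%, 27.0% and 26.8% with vCasΦ, and 26.2%, 29.3%, 29.9% and 32.0% with nCasΦ. All 8 variant libraries were above all 4 WTCasΦ libraries for acceptor-lost members, whereas the groups overlapped for members as a whole.

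The exact permutation test of the RNP libraries (4 against 4, two-sided, smallest possible p 0.0286) gave this smallest p for acceptor-lost members. The difference was 4.90 percentage points for vCasΦ minus WTCasΦ and 5.54 for nCasΦ minus WTCasΦ, each with an adjusted p of 0.129 over the 9 enzyme comparisons, which does not pass. At this smallest p the RNP comparisons could not pass by themselves after adjustment, so this result does not show that the enzymes are alike. For members as a whole the differences were 6.18 (adjusted p = 0.411) and 4.54 (adjusted p = 0.386). The share of -5:9D was 25.5%, 28.0% and 25.2% with WTCasΦ, vCasΦ and nCasΦ. The variants' differences from WTCasΦ were not shown to depend on delivery, since the tests of plasmid against RNP differences gave adjusted p-values of 0.448 or more over 6 permutation tests.

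**Figure D3:**
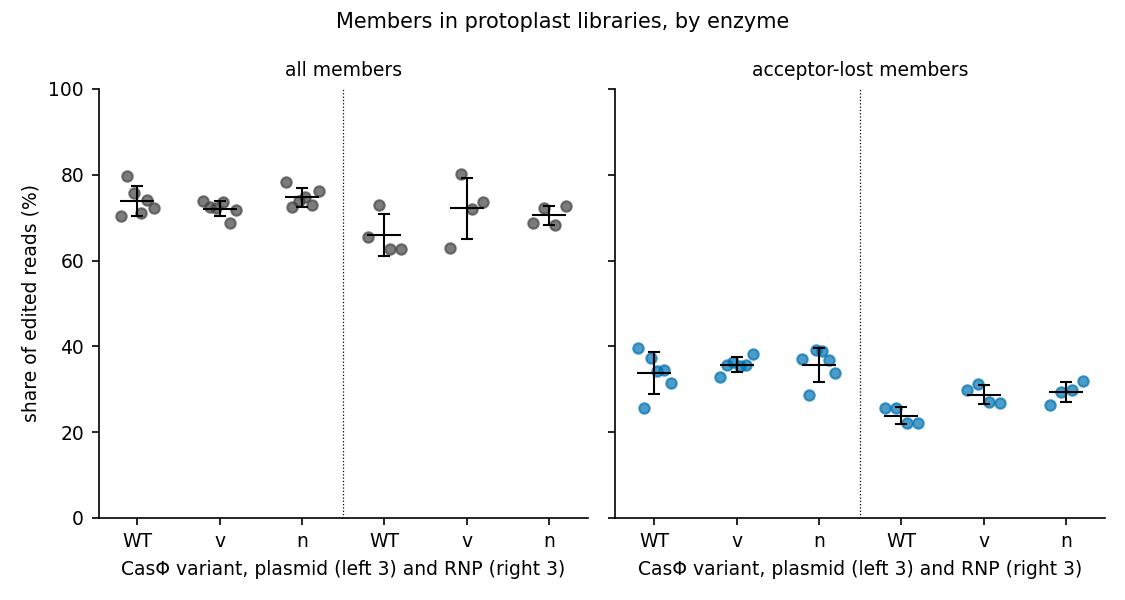
Share of edited reads (y axis, percent) of all members (left panel) and of acceptor-lost members (right panel) in protoplast libraries, by CasΦ variant, with 6 plasmid libraries or 4 RNP libraries per variant. Points are libraries, and bars are means with SD. Of the RNP libraries, the 4 of WTCasΦ lie below the others for acceptor-lost members.

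Delivery went with a difference in the acceptor-lost part. Over the 3 enzymes, U6 plasmid libraries had 33.2% acceptor-lost reads and RNP libraries 27.3%, a difference of 5.93 percentage points that was positive for 3 of 3 enzymes (exact permutation test within enzymes, n = 6 and 12, p = 0.00474, adjusted p = 0.0142 over 3 comparisons). Member share as a whole was 74.5% and 69.6% (difference 4.98, adjusted p = 0.0996), and without the second vCasΦ RNP library 5.87 with an adjusted p of 0.0260. Acceptor-kept members took 41.3% and 42.3% (adjusted p = 0.765). Plasmid and RNP libraries came from different transfections with their own controls, so delivery and experiment cannot be told apart. The libraries were also not matched for editing efficiency, and the read minimum per pattern leaves out rare members where edited reads are few. With a minimum of 10 reads the difference in member share was 4.95 (permutation adjusted p = 0.103). How far the read minimum sets the acceptor-lost difference was not tested.

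No comparison of guide promoters in plasmid protoplasts passed the test. In matched cassettes CmYLCV and UBQ10 had means of 73.4% and 73.7% (n = 16 each, difference -0.241, adjusted p = 0.909 by permutation within 8 strata), and CmYLCV was higher in 3 of 8, with differences by stratum from -5.26 to 10.9. With 2x35S the mean was 79% against 73.1% with CmYLCV in the 4 cassettes they share (n = 8 each, difference of CmYLCV minus 2x35S -5.90, exact permutation p = 0.0293, adjusted p = 0.0528), lower with CmYLCV in 4 of 4. This difference lay mainly in the C form arrays, where it was -8.57 with the 20-bp spacer and -13.7 with the 30-bp spacer, against -0.763 and -0.595 in the A form. Against UBQ10, with a mean of 73%, the difference of 2x35S was 5.98 (n = 8 each, exact permutation adjusted p = 0.294). By cassette it was -4.49 and -1.56 in the A form and 5.45 and 24.5 in the C form. The 2x35S C form libraries had low efficiencies of 0.0470% to 0.485%.

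The other changes of cassette did not pass either. Cassettes with ribozymes had 72% and those without 74.7% (n = 10 each, difference -2.67, exact permutation adjusted p = 0.228), although ribozyme cassettes were lower in 5 of 5 strata. The 30-bp spacer had 78.6% and the 20-bp spacer 73.9% (n = 8 each, difference 4.67, exact permutation adjusted p = 0.228), a value that became 7.00 with an adjusted p of 0.0309 without the first UBQ10 C form library with the longer spacer. The single libraries of the first promoter survey ranged from 42.4% (2x35S A form, 15366 edited reads) to 100% (2x35S B form, 2282 edited reads), and its UBQ10 B form library had no edited reads.

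In T1 plants with vCasΦ or nCasΦ, member share differed with the guide promoter. With vCasΦ the median was 54.7% under U6 (quartiles 47.8% and 62.1%, range 8.34% to 82.7%), 68.6% under CmYLCV (64.6% and 70.7%, range 0.414% to 99.3%) and 69% under UBQ10 (68.2% and 70.0%, range 64.3% to 97.6%). With nCasΦ it was 56.5% under U6 (47.6% and 63.1%, range 14.9% to 78.1%), 68.7% under CmYLCV (62.4% and 71.5%, range 1.17% to 99.0%) and 69.4% under UBQ10 (68.2% and 70.2%, range 54.9% to 88.3%). The U6 plants lay lower for both enzymes, and the populations overlapped. Of the vCasΦ U6 plants 41 of 49 were below the UBQ10 median, and of the nCasΦ U6 plants 36 of 41.

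Both U6 populations differed from the Pol-II populations by a two-sided permutation test of rank sums with 100000 resamples and adjustment over 9 promoter comparisons. U6 minus UBQ10 was -14.3 percentage points for vCasΦ and -12.9 for nCasΦ, each with p = 0.00001, the smallest these resamples can give, and an adjusted p of 4.50e-05. U6 minus CmYLCV was -14 for vCasΦ (adjusted p = 0.000270) and -12.3 for nCasΦ (adjusted p = 0.000562). CmYLCV minus UBQ10 was -0.372 for vCasΦ and -0.642 for nCasΦ (adjusted p = 0.294 for each). Among plants with an efficiency of at least 1%, U6 minus UBQ10 was -13.6 and -12.7, and U6 minus CmYLCV -12.9 and -12.0.

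Some of these differences depended on the unit counted or the statistic. When each distinct edited pattern was counted once, U6 minus UBQ10 became 0.254 for vCasΦ and 4.35 for nCasΦ, neither past the threshold, while U6 minus CmYLCV still passed (-9.14 and -5.41, adjusted p = 0.000510 and 0.00387) and CmYLCV minus UBQ10 became 9.39 and 9.76 (adjusted p = 0.000990 and 0.000202). With means in place of ranks U6 minus CmYLCV no longer passed (-8.83 and -6.75, adjusted p = 0.0639 and 0.214). The U6 plants lacked ribozymes, so promoter and ribozymes cannot be told apart.

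Both kinds of member had lower medians in the U6 plants than under UBQ10. Acceptor-lost members had medians of 25.6% under U6 and 32.9% under UBQ10 with vCasΦ (difference -7.33, adjusted p = 0.00864), and of 20.2% and 33.1% with nCasΦ (difference -13.0, adjusted p = 0.000180). Acceptor-kept members had medians of 26.1% and 35.6% with vCasΦ (difference -9.49, adjusted p = 9.00e-05), and of 32.5% and 35.8% with nCasΦ (difference -3.26, adjusted p = 0.400). Within the kept group -5:9D had medians of 13.5% and 21.5% with vCasΦ (adjusted p = 9.00e-05) and 14.6% and 21.1% with nCasΦ (p = 0.0234, adjusted p = 0.0703), all by the same permutation test. Among plants with an efficiency of at least 1%, U6 minus UBQ10 was -6.97 (permutation p = 0.000540, not adjusted) and -8.64 (p = 7.00e-05) for acceptor-lost members with vCasΦ and nCasΦ, and -10.1 (p = 0.00001) and -6.28 (p = 0.00127) for acceptor-kept members. Whether the variants differ in this split was not tested.

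Against CmYLCV, of these measures the acceptor-lost share of nCasΦ plants passed (-12, adjusted p = 0.00933), but among plants with an efficiency of at least 1% its difference was -7.80 (permutation p = 0.0607). With vCasΦ U6 minus CmYLCV was -4.88 for acceptor-lost members (adjusted p = 0.185), -8.59 for acceptor-kept members (adjusted p = 0.0777) and -7.82 for -5:9D (adjusted p = 0.111). With nCasΦ it was -3.31 for acceptor-kept members (adjusted p = 0.943) and -5.81 for -5:9D (adjusted p = 0.782).

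Shares are parts of a whole, so a lower member share leaves more to other edited reads. Deletions over 20 bp had medians of 11.6% and 6.99% in the vCasΦ and nCasΦ U6 plants, against 4.50% and 4.26% under CmYLCV and 5.38% and 4.96% under UBQ10. Exon-confined deletions had medians of 26.6% and 29.8% under U6 against 24.5% and 25.7% under CmYLCV and 24.4% and 25.6% under UBQ10. Editing efficiency had medians of 15.2% and 14.5% under U6, 4.33% and 9.01% under CmYLCV, and 17.9% and 35.9% under UBQ10. Insertions and compound patterns, which also count as edited, are left out here. How the difference of member share divides among the other classes was not tested.

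The UBQ10 plants were more alike than the others. Member share lay between 60% and 80% in 35 of 36 vCasΦ and 41 of 43 nCasΦ plants with UBQ10, in 33 of 46 and 39 of 54 plants with CmYLCV, and in 13 of 49 and 15 of 41 plants with U6. Under CmYLCV 6 vCasΦ and 7 nCasΦ plants had shares under 20%, and 4 of each had shares over 95%. Single members followed the same pattern: -5:9D had quartiles of 20.5% and 22.3% in vCasΦ UBQ10 plants, 14.0% and 22.7% in vCasΦ CmYLCV plants and 10.4% and 20.0% in vCasΦ U6 plants. The differences in spread were not tested.

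**Figure D4:**
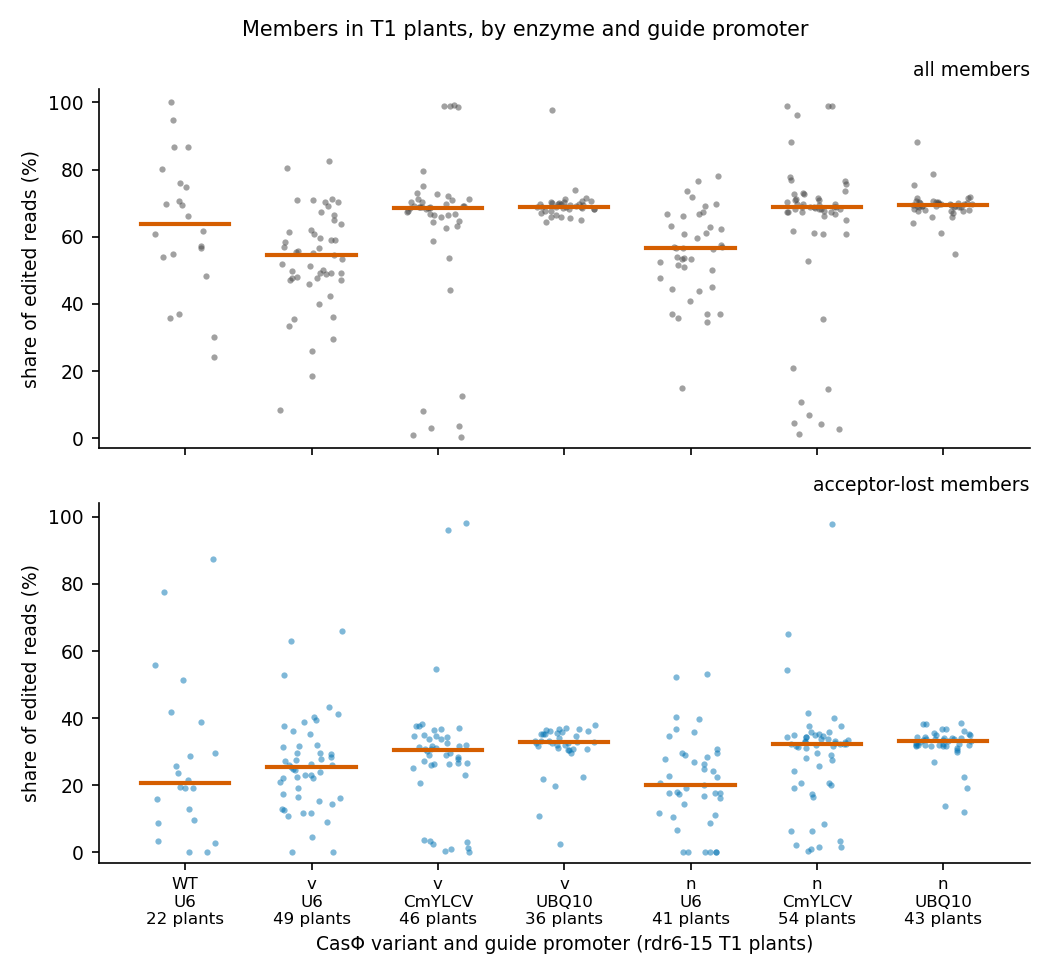
Share of edited reads (y axis, percent) of all members (top) and of acceptor-lost members (bottom) in rdr6-15 T1 plants, by CasΦ variant and guide promoter (x axis). Each point is a plant and each line a median. The U6 populations of vCasΦ and nCasΦ lie lowest for all members, and the UBQ10 populations lie within the narrowest bands.

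Between enzymes, the U6 plants of rdr6-15 did not differ beyond the adjusted threshold. The WTCasΦ plants had a median member share of 63.9% (quartiles 54.2% and 75.7%, n = 22), above that of vCasΦ with 54.7% (n = 49, difference -9.23, permutation p = 0.0278, adjusted p = 0.195) and of nCasΦ with 56.5% (n = 41, difference -7.44, adjusted p = 0.195). Acceptor-lost members had medians of 20.6%, 25.6% and 20.2% with WTCasΦ, vCasΦ and nCasΦ (adjusted p = 0.726 and 0.757 against WTCasΦ). The median efficiency of the WTCasΦ plants was 1.01%, and only 11 of them reached 1%. Among plants that did, the difference was -14.1 for vCasΦ (n = 45, adjusted p = 0.195) and -12.7 for nCasΦ (n = 32, adjusted p = 0.205), by the same permutation test.

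Protoplasts had higher member shares than T1 plants with the same enzyme and guide cassette. Over 7 matched constructs the mean was 73.7% in protoplasts (n = 14) and 62.1% in rdr6-15 T1 plants (n = 291), a difference of 11.6 percentage points in the same direction for 7 of 7 constructs (permutation within constructs, p = 0.0143, adjusted p = 0.0428 over 3 comparisons). By construct the difference ran from 0.719 (vCasΦ, UBQ10) and 5.07 (nCasΦ, UBQ10) to 19.9 (vCasΦ, U6) and 20.4 (nCasΦ, U6). The call rests on few protoplast libraries: without any 1 of 8 of the 14 it no longer passed, with adjusted p up to 0.0996 and a difference of at least 10.9. With only T1 plants of an efficiency of at least 1% the difference was 11.0 (permutation adjusted p = 0.0735). Acceptor-lost members had means of 35.3% and 27.9% (difference 7.37, adjusted p = 0.110). The protoplasts were Col-0 and the plants rdr6-15, so system and genotype cannot be told apart here. For Col-0 alone, with WTCasΦ and U6, the means were 75.4% (n = 4) and 58.4% (n = 37), with an adjusted p of 0.109 by permutation.

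Genotype showed no difference past the threshold. Version 1 plants had medians of 68.4% in rdr6-15 (n = 42) and 64.8% in Col-0 (n = 39), and version 2 plants 63.9% (n = 22) and 60.2% (n = 37), each with an adjusted p of 0.720 by permutation of rank sums. Among plants with an efficiency of at least 1% the difference of rdr6-15 minus Col-0 was -15.3 in version 1 (n = 26 and 10, permutation test, adjusted p = 0.233) and 20.4 in version 2 (n = 11 and 9, permutation test, adjusted p = 0.348). At 28 °C the medians were 69.1% and 63.4% in rdr6-15 plants of version 1 (n = 10) and version 2 (n = 12), and 64.7% and 88.6% in Col-0 plants (n = 15 and 9), most of them with efficiencies under 1%. In protoplasts with a version 2 plasmid, member shares were 74.0% and 77.4% at 23 °C and 80.9% and 79.5% at 28 °C, with acceptor-lost shares of 35.0% and 37.0% at 23 °C and 29.6% and 16.5% at 28 °C. With RNPs, 1 library with a pulse at 37 °C had 62.2% and 1 without it 71.8%. Temperature was not tested.

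Single T1 plants could be dominated by 1 member. In 16 plants a single member held over 50% of the edited reads and over 5% of all reads, 11 of them with acceptor-kept and 5 with acceptor-lost members, of 8 different patterns. The highest share was that of -6:10D in vCasΦ CmYLCV plant 43 (97.5% of edited reads, 95% Wilson interval 97.4% to 97.6%), where it was 7.67% of all reads. The -7:17D deletion, in which both acceptor bases are lost, held 95.6% (95.5% to 95.6%) in nCasΦ CmYLCV plant 23, and 13.9% of its reads. The highest fraction of all reads was 35.5%, of -5:9D in version 2 Col-0 plant 15 (88.6% of edited reads, interval 88.6% to 88.7%).

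Further acceptor-lost members led single plants in this way. In vCasΦ CmYLCV plant 4, -2:9D held 93.3% of edited reads, and in plant 20 of the same population -8:13D held 95.2%, a deletion with only 0.129% ± 0.315 in protoplasts. The 2 others were -4:8D with 72.9% in rdr6-15 WTCasΦ plant 5 and -7:17D with 50.1% in vCasΦ U6 plant 42. Of the acceptor-kept members -1:5D led 4 such plants, with 94.6% in nCasΦ CmYLCV plant 12 and 94.0% in vCasΦ CmYLCV plant 16 as the highest, and -2:6D held 93.3% in plant 6 of the first version 2 screen. In 3 T1 plants with edited reads there was no member, and in 19 members were all edited reads. The tissues of version 1 plant 33 held at most 223 member reads, 0.0134% of the edited reads of a leaf with an efficiency of 45.2%, since nearly all their edited reads were exon-confined.
-8:13D: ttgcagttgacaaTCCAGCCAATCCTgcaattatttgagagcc

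The member share was more even among plants with a high efficiency than among plants with few edited reads. Among the 40 T1 plants with under 1000 edited reads it had quartiles of 48.7% and 100%, with a median of 1.00 member per plant, and the acceptor-lost median was 0%. Among the 159 plants with an efficiency of at least 10% the quartiles were 55.5% and 69.8%, the median number of members was 72, and acceptor-lost members took a median of 32.0% of edited reads. These sets were chosen on different measures and were not matched for enzyme, promoter or genotype. A minimum of 100 reads per pattern leaves out rare members in plants with few edited reads, and how far it sets these values was not tested.

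**Figure D5:**
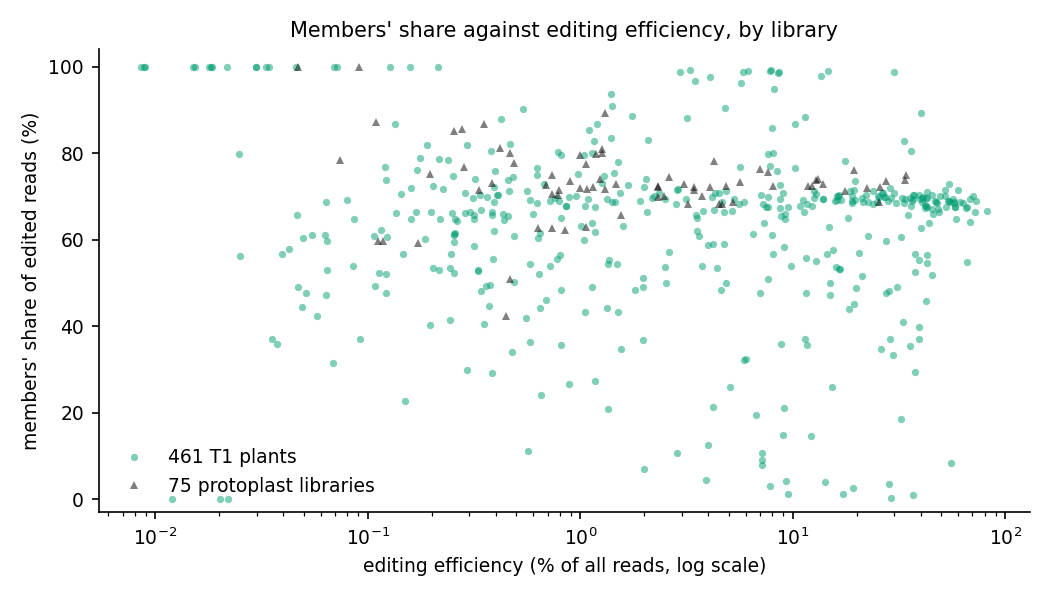
Member share of edited reads (y axis, percent) against editing efficiency (x axis, percent of all reads, log scale) in 461 T1 plants (circles) and 75 protoplast libraries (triangles). At low efficiency the shares run from 0% to 100%, and at high efficiency most plants are less spread, with single plants near 0% and near 100%.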

How the data were processed

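The authors trimmed the amplicon reads with Trim Galore, mapped them with BWA-MEM 0.7.17 to the target region and exported the read count of each mutation pattern from CrispRvariants. The deposited values are these counts, 1 file per library, not normalized, and depth is the sum of each file's counts. Whole-genome sequencing samples (10) were not used here. The build behind the amplicon reference is not given in the sources used here. The frame of the labels was set on TAIR10.1 by matching the reference bases in 42 substitution labels at 14 positions (17563903 reads): 1 of 18 exon ends of the gene gave 0 conflicting reads.

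Computation used Python 3.11.15, NumPy 2.4.6, SciPy 1.17.1 and matplotlib 3.10.9. Edited reads follow the study's criterion (indels of at least 3 bp, at least 100 reads per pattern). Groups come from the sample titles. Protoplast libraries were compared by permutation of values within strata of equal cassette, enzyme and experiment, exact where there were at most 100000 arrangements, and T1 plants by permutation of rank sums. P-values were Benjamini-Hochberg adjusted within families of 9 enzyme, 9 promoter, 2 cassette, 3 system and 2 genotype comparisons, for each measure separately, with a threshold of 0.05. For an alternative setting, the p-value of 1 comparison was adjusted together with the main member-share p-values of the others in its family. Such adjusted p-values are not those of a whole family run under that setting. Nothing in the labels says whether protoplast replicates were separate isolations, so these p-values measure the spread between libraries. The member shares of same-numbered RNP libraries deviated together in 3 of 3 comparisons (r = 0.372 to 0.662). These comparisons share their groups and hold 4 pairs each, so they cannot tell whether the libraries were paired, which the labels do not state. The procedures were also run on simulated shares with normal and equal spread in both groups. The T1 populations differ in spread, so these simulations do not cover their comparisons.

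The text names the 8 members with the highest mean share in protoplasts, the 5 counted in the most T1 plants, the members that dominate a T1 plant, and the leading exon-confined deletion. The members, the lists and this rule were chosen with earlier results of these data known. Alternatives changed the read minimum, the placement rule, the minimum of edited or total reads, the unit counted, control patterns, the statistic, the replicate block and the libraries included.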

Additional observations from a re-analysis of the deposited data

How the results depend on the processing

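Values are differences in member share in percentage points, in the order of the groups named, with 25 comparisons. The following changed direction or passed or lost the threshold, and the cause was not tested. A minimum of 10 reads per pattern gave 0.493 for CmYLCV minus UBQ10 and -6.09 for CmYLCV minus 2x35S (adjusted p = 0.0472) in plasmid protoplasts. Counting only members without an exon placement gave 1.95 for plasmid vCasΦ minus WTCasΦ, -0.640 for RNP vCasΦ minus nCasΦ, 5.03 and 5.46 for vCasΦ minus WTCasΦ and nCasΦ in U6 plants, 1.79 for CmYLCV minus UBQ10 in protoplasts, -4.88 for U6 minus CmYLCV in vCasΦ plants, 5.93 for plasmid minus RNP and 7.37 for matched protoplasts minus T1 plants. Counting each distinct pattern once gave -5.38 and -0.414 for nCasΦ minus WTCasΦ with plasmids and RNPs, 0.420 for vCasΦ minus nCasΦ in U6 plants, 9.39 and 9.76 for CmYLCV minus UBQ10 in vCasΦ and nCasΦ plants (adjusted p = 0.000990 and 0.000202), 0.254 and 4.35 for U6 minus UBQ10 and 4.45 for matched protoplasts minus T1 plants. Leaving out patterns that reach 100 reads in a control, which removes the leading members, gave -0.861 for plasmid nCasΦ minus WTCasΦ, -1.67 for RNP vCasΦ minus nCasΦ, 0.981 for CmYLCV minus UBQ10 in protoplasts, 3.18 and 2.10 for it in vCasΦ and nCasΦ plants (adjusted p = 0.0281 for nCasΦ), 1.80 for ribozymes, -3.02 for the spacer, 7.58 for matched protoplasts minus T1 plants and -9.35 for rdr6-15 minus Col-0 in version 2. Means in place of ranks gave -8.83 and -6.75 for U6 minus CmYLCV in vCasΦ and nCasΦ plants and -3.44 for rdr6-15 minus Col-0 in version 1. At least 1000 edited reads gave 11.3 for matched protoplasts minus T1 plants (adjusted p = 0.0503). An efficiency of at least 1%, chosen after seeing the data, gave 11.0 for it (adjusted p = 0.0735) and -15.3 for rdr6-15 minus Col-0 in version 1.

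Leaving out each protoplast library in turn gave -3.34 to -0.194, -0.728 to 2.42 and -3.60 to -1.63 for plasmid vCasΦ minus WTCasΦ, nCasΦ minus WTCasΦ and vCasΦ minus nCasΦ, and 3.53 to 9.27, 3.42 to 6.86 and -1.01 to 4.72 for the same with RNPs. It gave -1.46 to 0.974 for CmYLCV minus UBQ10, -7.62 to -4.17 for CmYLCV minus 2x35S, 3.65 to 8.31 for 2x35S minus UBQ10, -4.61 to -0.722 for ribozymes, 2.34 to 7.00 for the spacer, 3.41 to 6.56 for plasmid minus RNP, 10.9 to 12.3 for matched protoplasts minus T1 plants and 15.5 to 18.7 for the Col-0 pair. CmYLCV minus 2x35S passed without the first CmYLCV A form library (-6.14, adjusted p = 0.0389) or the first 2x35S ribozyme library (-6.55, adjusted p = 0.0250). Matched protoplasts minus T1 plants no longer passed without U6 WTCasΦ library 2 (10.9), U6 nCasΦ library 1 (11.2), either U6 vCasΦ library (11.5 and 11.7) or any of the 4 CmYLCV ribozyme libraries (11.5 to 11.7).

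With the replicate number as a block the differences stay the same by construction, and only the permutation p-values can change. The side of the threshold was kept in 11 of 11 comparisons, from vCasΦ minus WTCasΦ with plasmids (-1.77, adjusted p = 0.516) to CmYLCV minus 2x35S (-5.90, adjusted p = 0.0562). The enzyme comparisons have too few arrangements with the block to pass, so their result was fixed in advance. The RNP values with the block were 6.18, 4.54 and 1.63 (adjusted p = 0.450, 0.450 and 0.625). Deviations of same-numbered plasmid libraries correlated above 0.1 in 2 of 8 comparisons (r from -0.919 to 0.934). With 2 libraries per group the deviations of a group mirror each other, so these values cannot tell whether the libraries were paired. Ranks within strata, which alter only the p-value, and a minimum of 1000000 reads changed no call in the comparisons they were run on. The placement that favours the intron leaves every pattern in its class, so it could change nothing. In the 40 T1 plants under 1000 edited reads the acceptor-lost median was 0%.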

Other observations

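Among the CmYLCV plants with a member share under 20%, noted after the values were seen, edited reads were mostly of other patterns. In nCasΦ plant 6, exon-confined deletions were 98.8% of edited reads at an efficiency of 17.3%. In vCasΦ plant 32, deletions over 20 bp were 99.3% of edited reads at an efficiency of 29.1%.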
